A study of Macaca fascicularis with 20 samples.

Results

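The subject is the CD11b step within CD27+ natural killer (NK) cells of the macaque spleen: 5 arrays of CD27+ CD11b+ cells (double positives) against 4 arrays of CD27+ CD11blo cells (CD27 single positives), 9 of the 20 arrays of the series, chosen by their titles alone. All cells came from cryopreserved spleen of cynomolgus macaques (Macaca fascicularis), thawed, left unstimulated and sorted by flow cytometry from a live gate positive for CD45 and negative for CD3, CD14, CD20 and HLA-DR. Both groups were also NKG2A+ and CD8a+, so that by the sort they differed in CD11b only. The labels give the double-positive arrays ages of 4 years, unknown, 12 years, 5 years and 18 years for replicates 1 to 5, and the CD27 single-positive arrays 4 years, unknown, 10 years and 18 years for replicates 1 to 4. Replicates 1 to 4 of the double positives and 1 to 3 of the CD27 single positives were from males, and double-positive replicate 5 and CD27 single-positive replicate 4 from females. No CD27 single-positive array had the label of double-positive replicate 4 (male, 5 years, Singapore). The labels call the samples biological replicates without naming animals, so that p-values measure the spread between these sorts. CD27lo CD11b+ cells (CD11b single positives, 5 arrays) and CD27lo CD11blo cells (double-low cells, 4 arrays) of the same NK gate gave a second CD11b step. Its differences rest on arrays not used in the differences of the first, but both steps took their errors from 1 fit over all 18 NK arrays. CD11b single-positive replicates 1 to 5 were labelled 4 years, unknown, 11 years, 5 years and 18 years. Double-low replicates 1 to 4 were labelled 4 years, unknown, 9 years and 18 years. Replicate 3 thus carried a different labelled age in each subset.

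NK cells are innate lymphocytes that kill target cells by releasing perforin and granzymes from cytotoxic granules. In the mouse, CD27 and CD11b order NK cells along maturation, with CD11b gained while CD27 is still present and CD27 lost afterwards. CD11b is the alpha chain of an integrin that pairs with CD18, encoded by ITGB2, and serves adhesion to endothelium and matrix. The comparison asks which transcripts differ between CD27+ cells on either side of that gain.

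Every array was hybridised with the RNA of a single sort in a single dye. Precision is bounded by how few arrays there were. At the 75th percentile the signal of an array was 1161.5 ± 648 units in double positives (SD, n = 5) and 1226 ± 278 in CD27 single positives (n = 4), a difference within the spread (two-sided exact permutation p = 0.905, where 126 arrangements allow no less than 0.00794). Double-positive replicate 4 stood apart at 180 units, with 67.9% of probes well above background against 83.3% or more on the other 8 arrays, and most values of named genes that moved by more than 1.5 times without it, or without another single array, are given that way as well. Levels below are log2 signal minus the 75th percentile of the array, so 0 is the 75th percentile, and a difference of 1 is 2-fold. Errors of differences are standard errors from limma, and those of group means are SDs. On the list of sort and gating markers CD27, PTPRC (CD45), CD3D and CD74 had a probe that could be named and tested. None was found for ITGAM (CD11b), KLRC1 (NKG2A), CD8A, KLRF1 (NKp80), CD3E, CD3G, CD14 and MS4A1 (CD20), so the CD11b sort itself could not be followed on the arrays. CD74 and KLRF1 were on that list but are not in the gate given above. CD27, a tumour necrosis factor family receptor, was at 4.25, 3.88, 3.71, 3.75 and 3.66 in double positives and at 4.87, 3.66, 4.07 and 4.68 in CD27 single positives (difference -0.47 ± 0.43). The groups overlapped for it. PTPRC (0.04 ± 0.47) and CD74 (-0.01 ± 0.62), the invariant chain of HLA class II, differed by less than their errors. CD3D, a chain of the gated-out CD3 complex, overlapped at 0.19 ± 1.06 in double positives against 1.34 ± 1.24 (difference -1.15 ± 0.78).

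No gene passed limma's test at a Benjamini-Hochberg adjusted p of 0.05 among 12192 genes (0%). In all 295 genes (2.42%) had an unadjusted p under 0.05, 110 (0.902%) higher and 185 (1.52%) lower in double positives. The genes below are therefore given as values and not as changes. Every gene but PLEKHG3 had a limma adjusted p of 0.9999 in this comparison. All 5 double-positive arrays lay above all 4 CD27 single-positive arrays for 42 genes (0.344%) and below them for 33 (0.271%). The median difference over all genes was -0.09, with 43% of genes positive, and it became 0.06 after normexp background correction.

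PLEKHG3, a guanine nucleotide exchange factor that binds actin and acts in cell polarity, had the lowest p of all genes. Its level was 3.54, 1.08, 1.19, 3.03 and 3.07 in double positives and -0.64, -1.47, -2.15 and -0.84 in CD27 single positives. Every double-positive array lay above every CD27 single-positive array. The difference was 3.65 ± 0.58, with means of 2.38 ± 1.16 (n = 5) and -1.27 ± 0.69 (n = 4) and a limma adjusted p of 0.0699. It was 3.36 within the first slide, which held replicates 1 and 2 of both groups, and 2.68 within the second, which held double-positive replicate 3 and CD27 single-positive replicates 3 and 4. Without double-positive replicate 4 it was 3.49 ± 0.61. In sorted bulk samples, fewer cells expressing a gene and less RNA per cell cannot be told apart. Its adjusted p lay under 0.05 without double-positive replicate 2 (0.0286) or 3 (0.0393), or without CD11b single-positive replicate 5 (0.0202), and rose to 0.591 without CD27 single-positive replicate 3.

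When each of 56918 probes was tested, named or not, 1 passed (0.00176%) and 1517 (2.67%) had an unadjusted p under 0.05, 519 (0.912%) higher and 998 (1.75%) lower. All double-positive arrays lay above all CD27 single-positive arrays for 151 probes (0.265%) and below them for 199 (0.35%). The 10 probes of lowest p carry transcript accessions that follow each other in 1 consecutive series. The gene table pairs 2 of them with PLEKHG3 and leaves 8 unnamed. Their differences ran from 3.52 to 3.81 and their adjusted p from 0.0474 to 0.0524. Across the 9 arrays each pair of the 10 correlated at 0.992 to 0.9995 (45 pairs, over arrays that the 10 probes share), so they report 1 signal and not 10. The nearest probes on either side of that series of accessions, both unnamed, differed by -0.84 ± 0.77 and -0.29 ± 0.55. The next probes by p were also unnamed, at 5.15 ± 0.90 (adjusted p = 0.0926) and 5.31 ± 0.98 (adjusted p = 0.161). The first of these was well above background on 5 of 5 double-positive arrays and 2 of 4 CD27 single-positive arrays, the second on 5 and 1, so that both differences are set in part by levels not well above background.

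**Figure D1:**
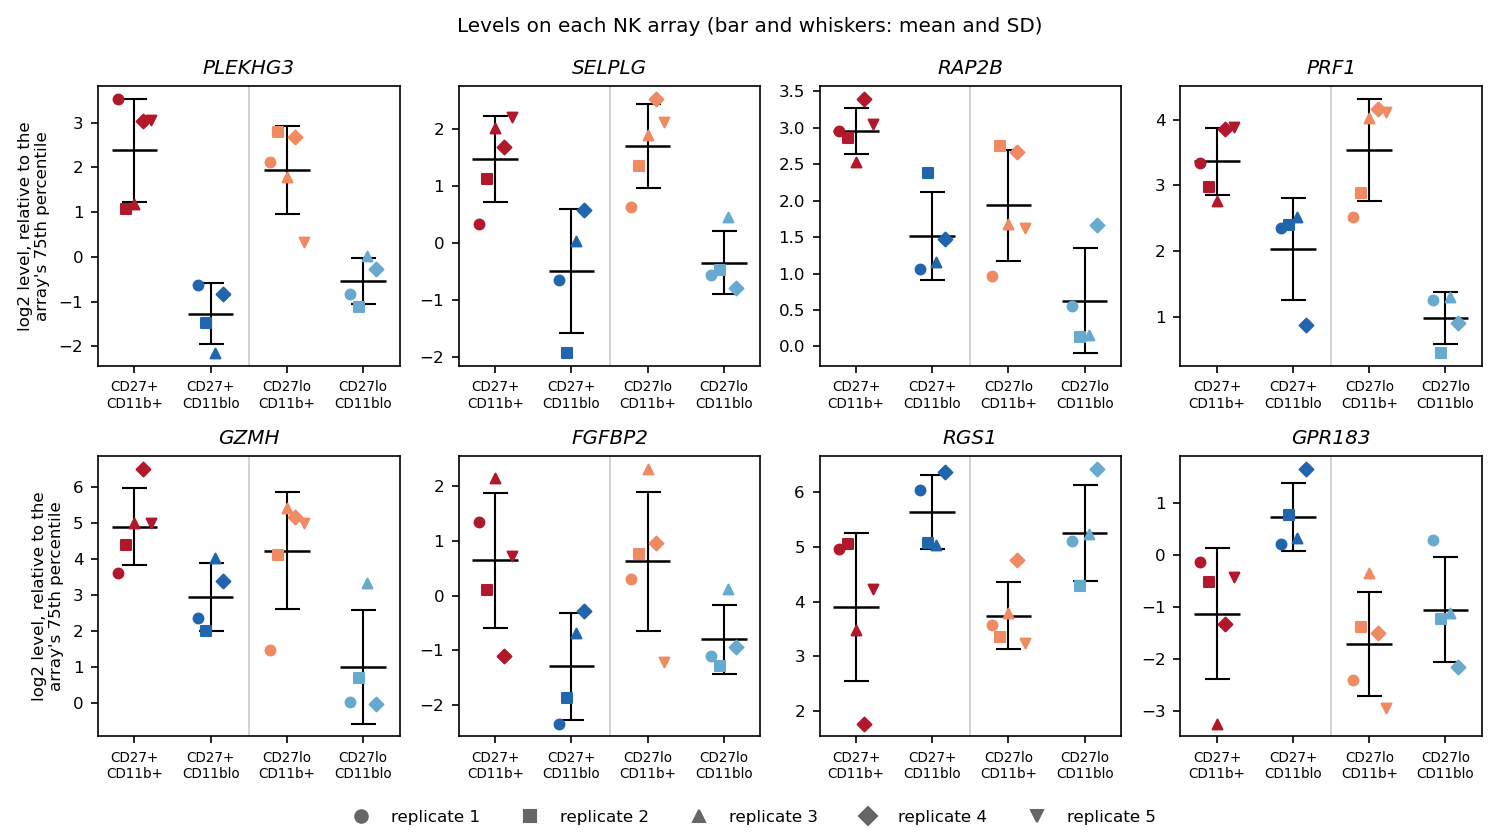
Log2 level relative to the array's 75th percentile (vertical axis) on each NK array for 8 genes, by subset, with bars at the mean and whiskers of 1 SD. Double positives lie wholly above CD27 single positives for PLEKHG3, RAP2B and PRF1 and wholly below for GPR183, and the groups overlap for SELPLG, GZMH, FGFBP2 and RGS1.

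Among genes of the actin filament machinery, which shapes and moves the cell, 15 of 22 were positive around a median of 0.11, with none at an unadjusted p under 0.05. That median was 0.10 within the first slide and -0.75 within the second. The crosslinker gene FLNA (filamin A) was at 1.05 ± 0.62 and the bundling gene LCP1 (L-plastin) at -0.58 ± 0.38. EZR, which encodes ezrin and links membrane to actin, was at -1.91 ± 1.13, but it was -5.28 on double-positive replicate 4 and between 0.72 and 2.24 on the other 4, and without replicate 4 the difference was -0.55 ± 0.64. COTL1, an F-actin binding protein listed here with early NK genes, was lower in double positives, at -0.69, 2.61, 0.27, -2.64 and 3.35 against 4.74, 3.08, 2.54 and 4.74. Double-positive replicates 2 and 5 lay within the range of the other group. The difference was -3.20 ± 1.01, and -2.39 ± 0.90 without double-positive replicate 4.

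Of the granule genes PRF1 and GZMH had an unadjusted p under 0.05, and neither passed after adjustment. PRF1, the pore-forming perforin, was at 3.34, 2.97, 2.75, 3.86 and 3.89 in double positives and at 2.35, 2.39, 2.52 and 0.87 in CD27 single positives. The groups did not overlap, with double-positive replicate 3 and CD27 single-positive replicate 3 the nearest to each other. The difference was 1.33 ± 0.44, or 0.94 without CD27 single-positive replicate 4. GZMH, which encodes granzyme H, was at 3.60, 4.40, 5.01, 6.49 and 5.01 against 2.37, 2.0, 4.04 and 3.38. Only double-positive replicate 1 fell below the highest CD27 single-positive array. The difference was 1.95 ± 0.81, and 1.56 ± 0.82 without double-positive replicate 4. FGFBP2, secreted by cytotoxic lymphocytes, was at 1.35, 0.11, 2.15, -1.11 and 0.74 against -2.34, -1.88, -0.68 and -0.27, with replicate 4 the double-positive array inside the range of the other group. The difference was 1.94 ± 0.69, and 2.38 ± 0.66 without that array. GZMB, granzyme B, was at 6.20 ± 0.44 against 5.82 ± 0.48 (difference 0.38 ± 0.42). GZMK, granzyme K, differed by -0.65 ± 0.67 and GNLY, granulysin, by 0.93 ± 0.68. GZMB was at 0.15 without CD27 single-positive replicate 2, GZMK at -0.19 without double-positive replicate 4 and GNLY at 0.60 without double-positive replicate 3. GZMA, granzyme A, stood at -0.30 ± 1.30, and at 1.12 ± 0.89 without double-positive replicate 4, where its level was -2.99. CTSC, the protease that activates granzymes, was at -2.17 ± 1.28, and STX11, a syntaxin of granule release, at -1.68 ± 1.01. For both the 2 lowest double-positive arrays were replicates 3 and 4, and within the first slide the differences were 0.35 and 0.11. Without double-positive replicate 4 they were -1.02 and -0.94.

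The cytotoxic granule list as a whole had a median of 0.04, with 8 of 16 positive, 2 of them at an unadjusted p under 0.05 and none negative at that level, and the median ran from -0.14 to 0.31 as single arrays of the 9 were left out. The mature effector list, which shares PRF1, GZMB and GZMH with it, had a median of 0.10 with 12 of 19 positive and 3 at an unadjusted p under 0.05 (GZMH, FGFBP2 and PRF1). Its other members included the egress receptor gene S1PR1 at 1.03 ± 0.58 and the inhibitory lectin receptor gene KLRG1 at -1.52 ± 1.08, which were 0.59 without double-positive replicate 3 and -0.79 without double-positive replicate 5. Its median was -0.03 without double-positive replicate 3 and between 0.03 and 0.23 without any other of the 9 arrays. Early or CD56bright-like NK genes had a median of -0.24 with 9 of 14 negative, led by COTL1 and by the stem cell factor receptor gene KIT at -2.27 ± 1.40, or -1.35 without CD27 single-positive replicate 2.

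The selectin ligand and adhesion genes were mixed. SELPLG, which encodes PSGL-1, the ligand by which leukocytes roll on P-selectin, was at 0.34, 1.13, 2.03, 1.69 and 2.23 in double positives and at -0.66, -1.94, 0.04 and 0.59 in CD27 single positives. All but double-positive replicate 1 lay above the other group. The difference was 1.97 ± 0.53, 2.03 and 1.71 within the first and second slide. CD58, the ligand of CD2, was at 1.52 ± 0.70, but at 0.78 ± 0.51 without double-positive replicate 4, and at -0.13 within the second slide. ITGB2, the partner chain of CD11b, differed by 0.41 ± 0.44, and ITGA5, the alpha 5 integrin chain, by 0.86 ± 0.48, with 0.24 and 0.51 without double-positive replicate 4. Over the 21 integrins and selectin ligands tested the median was 0.16, with 14 positive.

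Genes of tissue retention were negative for 11 of 15, against 6953 of 12192 over all genes, with a median of -0.65 against -0.09 for all genes. That median is the value of GZMK, which the granule and early NK lists also hold. Of the negative members RGS1 and RGS10 had an unadjusted p under 0.05, and none of the 4 positive members did. Over all genes 1.52% were lower at that level. RGS1, a regulator of G protein signalling that dampens chemokine receptors, was at 4.97, 5.06, 3.49, 1.77 and 4.24 in double positives and at 6.04, 5.08, 5.04 and 6.37 in CD27 single positives. The groups overlapped at double-positive replicate 2, just above CD27 single-positive replicate 3. The difference was -1.73 ± 0.59, and -1.20 ± 0.49 without double-positive replicate 4. It was -0.54 within the first slide and -2.22 within the second. RGS10 was at -1.69 ± 0.68, RGS2 at -1.37 ± 0.70, CRTAM, an adhesion receptor of activated cytotoxic cells, at -1.19 ± 0.66 and CD69, which opposes egress, at -0.69 ± 0.58. Each of these rested in part on 1 array: RGS2 was at -0.89 and CRTAM at -0.59 without double-positive replicate 3, RGS10 at -1.08 without CD27 single-positive replicate 4 and CD69 at -0.33 without CD27 single-positive replicate 1. The list median was -0.25 without double-positive replicate 1 and between -0.85 and -0.49 without any other of the 9 arrays. GPR183, the oxysterol receptor that positions lymphocytes in spleen and lymph node, was at -0.15, -0.52, -3.24, -1.33 and -0.42 against 0.22, 0.76, 0.32 and 1.65. All double-positive arrays lay below all others, with double-positive replicate 3 the lowest. The difference was -1.87 ± 0.65, and it was -0.82 within the first slide against -4.22 within the second. GPR183 was the 1 of 14 chemokine and sphingosine phosphate receptors with an unadjusted p under 0.05, in a list with a median of 0.06, or -0.17 to 0.32 as single arrays were left out.

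**Figure D2:**
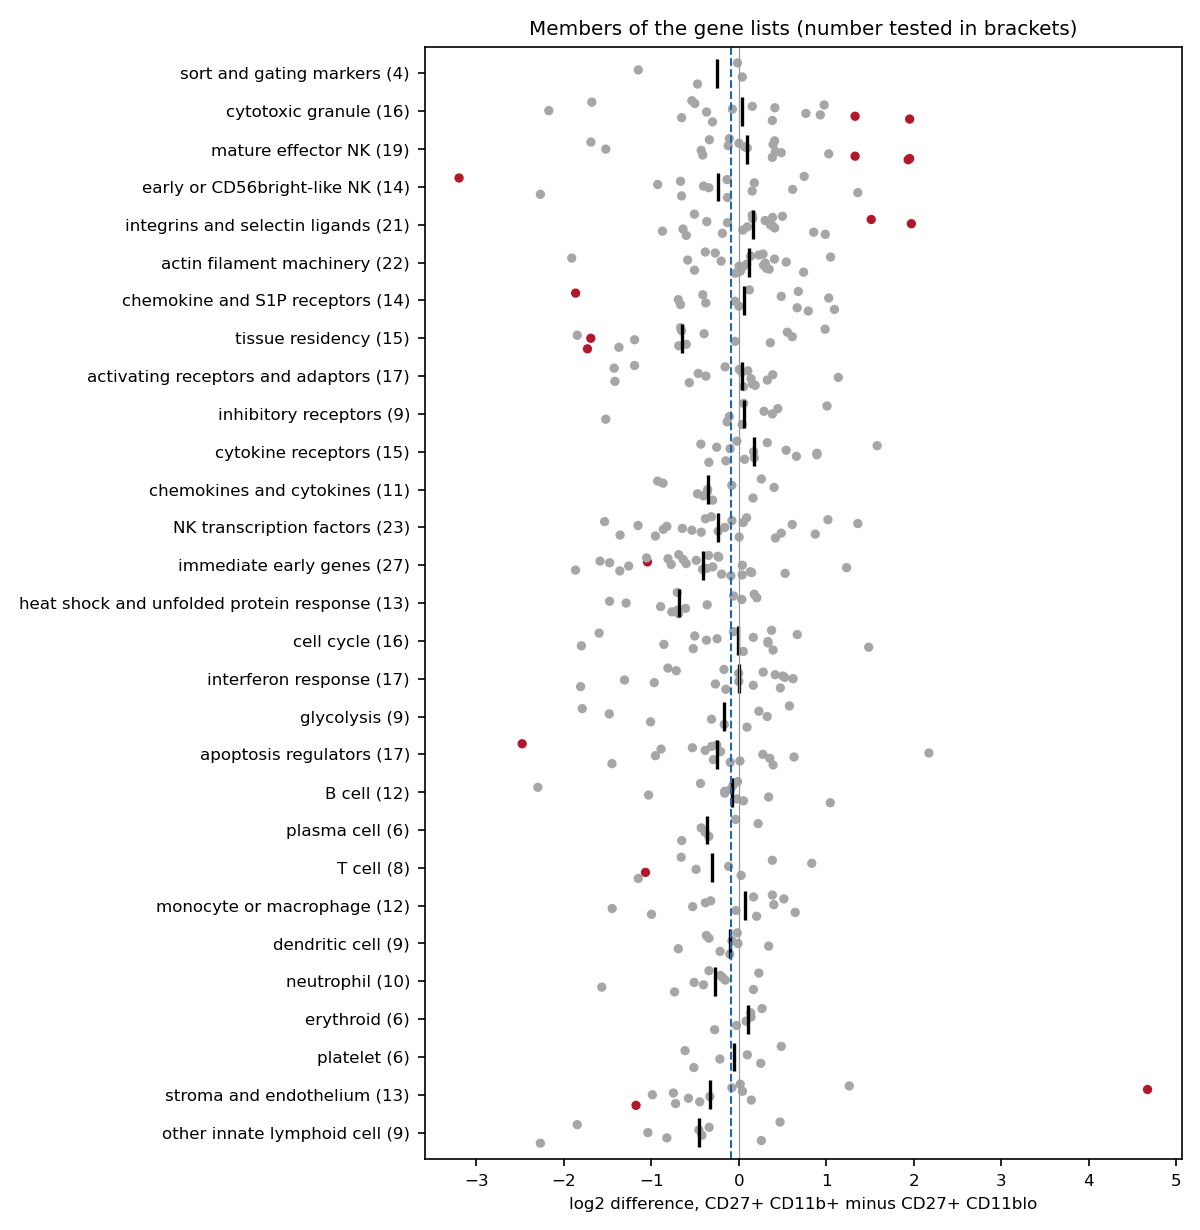
Log2 difference, double positives minus CD27 single positives (horizontal axis), of the tested members of gene lists (vertical axis), with a black bar at the list median, a dashed line at the median of all genes (-0.09) and red points for an unadjusted p under 0.05. The medians of tissue residency (-0.65) and of heat shock genes (-0.69) lie furthest to the left.

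Over all genes 6953 of 12192 were negative. Immediate early genes, which respond first when a cell is stimulated, were negative for 21 of 27, with a median of -0.41, and heat shock and unfolded protein response genes for 10 of 13, with a median of -0.69. In these lists DUSP5, a phosphatase of ERK, was the only member with an unadjusted p under 0.05. It was at 3.82, 4.32, 2.73, 2.78 and 3.65 in double positives and at 4.62, 4.76, 4.03 and 4.61 in CD27 single positives, overlapping at double-positive replicate 2, with a difference of -1.04 ± 0.36. EGR1, an early growth response factor, was at -1.36 ± 0.86, DUSP2 at -1.48 ± 0.93, BTG1 at -0.81 ± 0.50, and the chaperone genes HSPA8 and HSPA9 at -0.76 ± 0.56 and -0.70 ± 0.47. Without double-positive replicate 4 EGR1 was at -0.86, HSPA8 at -0.42 and HSPA9 at -0.35. DUSP2 was at -0.82 without CD27 single-positive replicate 1 and BTG1 at -0.42 without double-positive replicate 3. Without double-positive replicate 4 the list medians were -0.52 and -0.39, and within the first slide they were -0.42 and -0.33. The immediate early median was -0.16 without CD27 single-positive replicate 1, and the heat shock median -0.38 without double-positive replicate 3. Both groups were thawed and sorted by the same protocol, and whether the handling of single sorts contributed to these values was not tested.

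FCER1G, the Fc receptor gamma chain, was at 4.46, 4.18, 4.12, 5.03 and 4.40 against 4.48, 3.44, 3.83 and 1.44, a difference of 1.14 ± 0.55 that fell to 0.52 without CD27 single-positive replicate 4. TGFBR3, betaglycan, was at 1.58 ± 0.79, and 0.48 without that array, where it was -1.71. SLAMF7, an activating receptor, and PLCG2, a phospholipase downstream of activating receptors, were both at -1.42 (SE 0.70 and 0.77). The activating receptor list had a median of 0.04 with 10 of 17 positive, or -0.12 to 0.14 as single arrays were left out. Among NK transcription factors, with a median of -0.24 and 14 of 23 negative, none had an unadjusted p under 0.05: ID2 was at -0.95 ± 0.52, ID3 at -1.36 ± 0.83, RUNX1 at -1.15 ± 0.75 and ZEB1 at 0.88 ± 0.49. The median was 0.19 without double-positive replicate 3, where ID2 was at -0.41, and down to -0.50 without other arrays. Without double-positive replicate 4 ID3 was at -0.90, RUNX1 at -0.57, ZEB1 at 0.45 and PLCG2 at -0.91. Of 17 apoptosis regulators BIRC3, an inhibitor of apoptosis protein, was at -2.48 ± 1.07, with double-positive replicates 3 and 4 at -3.35 and -2.80 and all other arrays at 1.07 or more. BCL2A1, a survival gene, was at -1.45 ± 0.82, and at -0.80 without double-positive replicate 4. BBC3, which encodes the death activator PUMA, was at 2.17 ± 1.23, and at 1.28 without CD27 single-positive replicate 3.

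Among the 12 genes of lowest p in each direction, several separated the groups on every array. A low p and separation come from the same arrays, so that the separation adds no support to these genes. Over all genes 0.344% lay wholly above and 0.271% wholly below. CREBZF, a basic leucine zipper factor, was at 3.58, 2.47, 2.63, 3.80 and 2.81 in double positives and at 1.78, 1.90, 1.86 and 1.28 in CD27 single positives (1.36 ± 0.39). MCOLN2, an endolysosomal cation channel, was at 0.54, -0.98, 0.61, 0.36 and -1.10 against -3.92, -2.53, -1.12 and -2.88 (2.50 ± 0.73). RAP2B, a small GTPase of the Ras family, was chosen after its values were seen and is not among the 12. It was at 2.95, 2.86, 2.52, 3.40 and 3.05 against 1.06, 2.38, 1.16 and 1.47 (1.44 ± 0.43). Among the 12 lower in double positives, DYNLRB2, a dynein light chain, was at -1.47 ± 0.45, ANGEL1 at -1.22 ± 0.39, ZNF451, a SUMO ligase, at -2.02 ± 0.65 and EMILIN2, an extracellular matrix glycoprotein, at -1.80 ± 0.60, all 4 without overlap. For ANGEL1 the 4 tested probes ran from -1.22 to -0.23. RPTOR, the raptor subunit of the mTORC1 complex, was also lower on all 5 double-positive arrays (-1.17 ± 0.45). It too was chosen after its values were seen and is not among the 12.

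SENP5, a SUMO protease, was well above background on 4 of 5 double-positive arrays and on none of the CD27 single-positive arrays, so that it was at least 3.60-fold higher in double positives against the background level. SPINK8, a serine protease inhibitor, was above background on no double-positive array and on 2 of 4 CD27 single-positive arrays, at least 4.24-fold lower. Further genes of low p were dim or uneven: ZNF449, a zinc finger factor, was at 3.75 ± 1.0, with 1 of 4 CD27 single-positive arrays above background and double-positive replicate 4 at 1.72, and without that array at 2.69 ± 0.72. CPOX, an enzyme of haem synthesis, was at 2.35 ± 0.68. USP6NL, a GTPase-activating protein of RAB5, was at -2.85 ± 0.84, POLR2D, an RNA polymerase II subunit, at -2.0 ± 0.60, and KIF13A, a kinesin, at -1.59 ± 0.48.

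Of the genes detected on all 9 arrays (8094), 33 separated upward and 21 downward. Over all 12192 genes 42 (0.344%) and 33 (0.271%) did so. The genes named here were picked by that separation, which therefore adds no support to them. Besides PLEKHG3 and MCOLN2 the largest upward differences belonged to RNF125, a ubiquitin ligase (2.27 ± 1.05), BUD13, a spliceosome component (2.05 ± 0.63), CCDC137 (1.86 ± 0.71) and UBL4A (1.86 ± 0.56). BUD13 was at 4.59 on double-positive replicate 4 and between 1.08 and 1.81 on the other 4, and without that array its difference was 1.42 ± 0.48. RAB8B, a GTPase of membrane traffic, was lower by -2.03 ± 0.85, with replicate 4 at -2.77 and the other double-positive arrays between -0.07 and 0.95, and without it at -1.38 ± 0.76.

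**Figure D3:**
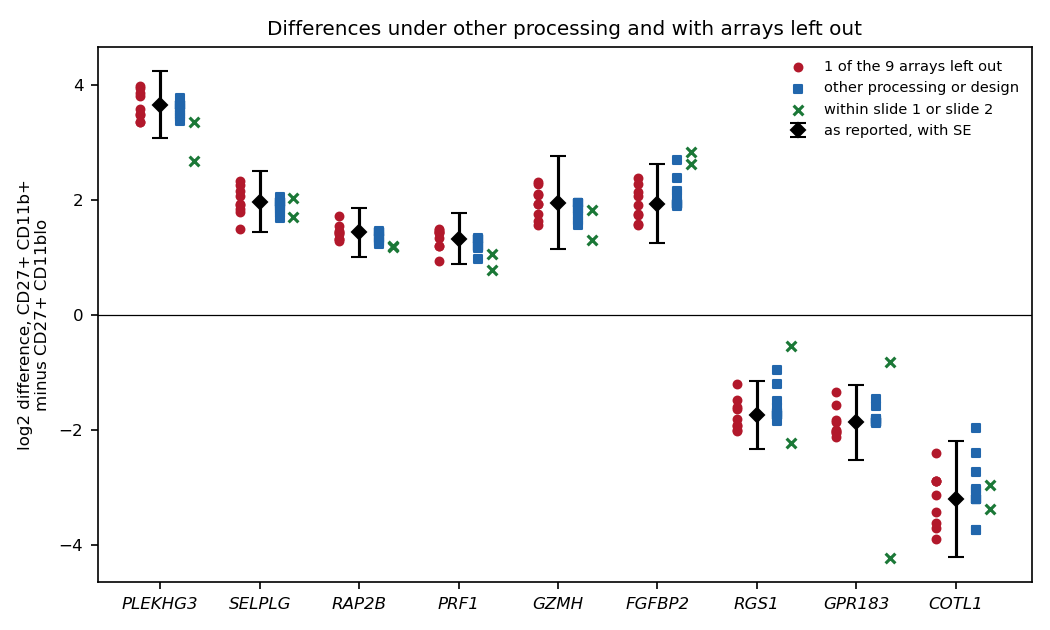
Log2 difference, double positives minus CD27 single positives (vertical axis), for 9 genes: as reported with its standard error (black), with 1 of the 9 arrays left out (red), under other processing or design (blue), and within the first or second slide (green). All points of PLEKHG3, SELPLG, RAP2B, PRF1, GZMH and FGFBP2 lie above 0 and all of RGS1, GPR183 and COTL1 below.

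PDGFRB, a platelet-derived growth factor receptor best known in stromal cells, was at 2.03, -0.13, 1.73, -2.53 and 2.53 in double positives and at -1.77, -8.08, -3.49 and -2.46 in CD27 single positives (4.67 ± 1.23). Only double-positive replicate 4 lay within the other group's range, and without it the difference was 5.49 ± 1.17. Without CD27 single-positive replicate 2, the array at -8.08, the difference was 3.30. PDGFRB was not well above background on all 9 arrays, so its difference is set in part by dim levels. The stroma and endothelium list that holds it had a median of -0.33 with 8 of 13 negative. That median was 0.02 without double-positive replicate 5, down to -0.52 without other arrays, and -0.09 and 0.30 within the first and second slide. Its summed level (log2) ran from 2.68 to 3.75 over double positives and from 2.15 to 3.39 over CD27 single positives, and 5 of its 13 members were positive. Of genes picked after their values were seen, PDGFRA was at 0.04, the endothelial gene CDH5 at -0.45, VWF at -0.72 and COL1A1 at -0.99. These picked genes do not stand for the whole list. PECAM1, also an adhesion molecule of leukocytes, was at -1.17 ± 0.53. Probes of 1 gene did not always run alike: 6 probes of PECAM1 ran from -1.44 to 0.36. T cell genes, which matter because of CD3D, had a median of -0.30 with 5 of 8 negative, and CD6, a T cell surface receptor, was at -1.07 ± 0.49, and -0.42 without CD27 single-positive replicate 4. Their summed level ran from 2.76 to 3.81 against 3.13 to 3.89. Other innate lymphoid genes had a median of -0.46 with 7 of 9 negative and a summed level of 0.81 to 2.79 against 2.34 to 3.19. B cell (median -0.08), monocyte (0.07), dendritic (-0.10), plasma cell (-0.36), neutrophil (-0.28), erythroid (0.11) and platelet (-0.06) genes had no member with an unadjusted p under 0.05, and all these medians but those of B cells and neutrophils turned sign when some single array was left out. No tested member of any of these lists was below background on all 9 arrays. The part of such cells in the results was not tested.

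The second CD11b step, CD11b single positives minus double-low cells, was set beside the first, and the differences of the steps share no array. Their errors and p-values are not separate, because 1 fit over all 18 NK arrays gave each gene 1 estimate of spread for both steps. A gene of small spread thus tends to a low p in both, so the overlap below does not come from independent tests. The steps are not independent in layout: the third slide held 2 double-positive and 2 CD11b single-positive arrays and no CD11blo array, and the label of double-positive replicate 4 (5 years, Singapore) occurs again only in CD11b single positives among the NK arrays. What slide or animal contributed to both steps cannot be told apart from CD11b on that slide. With slide as a block 232 and 244 of 12192 genes had an unadjusted p under 0.05 in the CD27+ and CD27lo step. It too had 0 genes at an adjusted p of 0.05 in limma, with 438 (3.59%) at an unadjusted p under 0.05, 231 (1.89%) higher and 207 (1.7%) lower in CD11b single positives. In 38 genes the unadjusted p was under 0.05 in both steps, 12.9% of the 295 and 8.68% of the 438. Of these 37 went the same way, 25 higher and 12 lower with CD11b. The exception was SLC44A4, a choline transporter-like gene, at 0.77 ± 0.37 in CD27+ cells and -1.05 ± 0.37 in CD27lo cells. Across all 12192 genes, which are not independent replicates, the steps had the same sign for 56.0% and correlated weakly (Pearson r = 0.15, a description over genes of 1 set of arrays against the other).

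PLEKHG3 was at 2.49 ± 0.58 in the CD27lo step, with CD11b single positives at 1.94 ± 0.98 (n = 5) and double-low cells at -0.55 ± 0.52 (n = 4). The 10 consecutive probes ranged from 2.34 to 2.58 there, and the 2 further unnamed probes were at 4.39 and 5.19. PDGFRB was at 4.92 ± 1.23, GZMH at 3.22 ± 0.81, PRF1 at 2.56 ± 0.44, SELPLG at 2.06 ± 0.53, SENP5 at 2.23 ± 0.77 and RAP2B at 1.31 ± 0.43. FGFBP2 was at 1.42 ± 0.69 and was not among the 438 genes of the CD27lo step. Some further genes were picked because both values were low in p, and chosen after their values were seen. The calcium-binding gene S100A4 was at 1.13 ± 0.44 and 1.49 ± 0.44 in the CD27+ and CD27lo step. S100A10, also calcium-binding, was at 1.76 ± 0.73 and 1.55 ± 0.73, the first 1.11 without CD27 single-positive replicate 4. LGALS1, which encodes galectin-1, was at 1.33 ± 0.55 and 1.46 ± 0.55. CD7, a surface receptor of T and NK cells, was at 1.55 ± 0.74 and 1.71 ± 0.74. Picked in the same way were ADD3, an adducin (1.63 and 1.92), STK38, a kinase (1.51 and 2.51), and INPP5F, a phosphoinositide phosphatase (2.01 and 2.13). So were AFAP1L2, an actin filament-associated adaptor (1.27 and 1.12), and the tetraspanin gene TSPAN2 (1.38 and 1.91). KLF3, a Krüppel-like transcription factor, was at 2.35 ± 0.87 and 3.36 ± 0.87, though at -0.70 within the second slide in CD27+ cells, and TXNIP, the thioredoxin-interacting protein, at 1.37 and 1.26. On the lower side RGS1 was at -1.73 and -1.52, and HES1, a repressor downstream of Notch, at -2.96 ± 1.26 and -3.23 ± 1.26, well above background on 2 of 5 double-positive and 3 of 4 CD27 single-positive arrays. GPR183 (-0.66 ± 0.65), DUSP5 (-0.48 ± 0.36) and COTL1 (-1.85 ± 1.01) were not among the 438 genes of the CD27lo step.

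**Figure D4:**
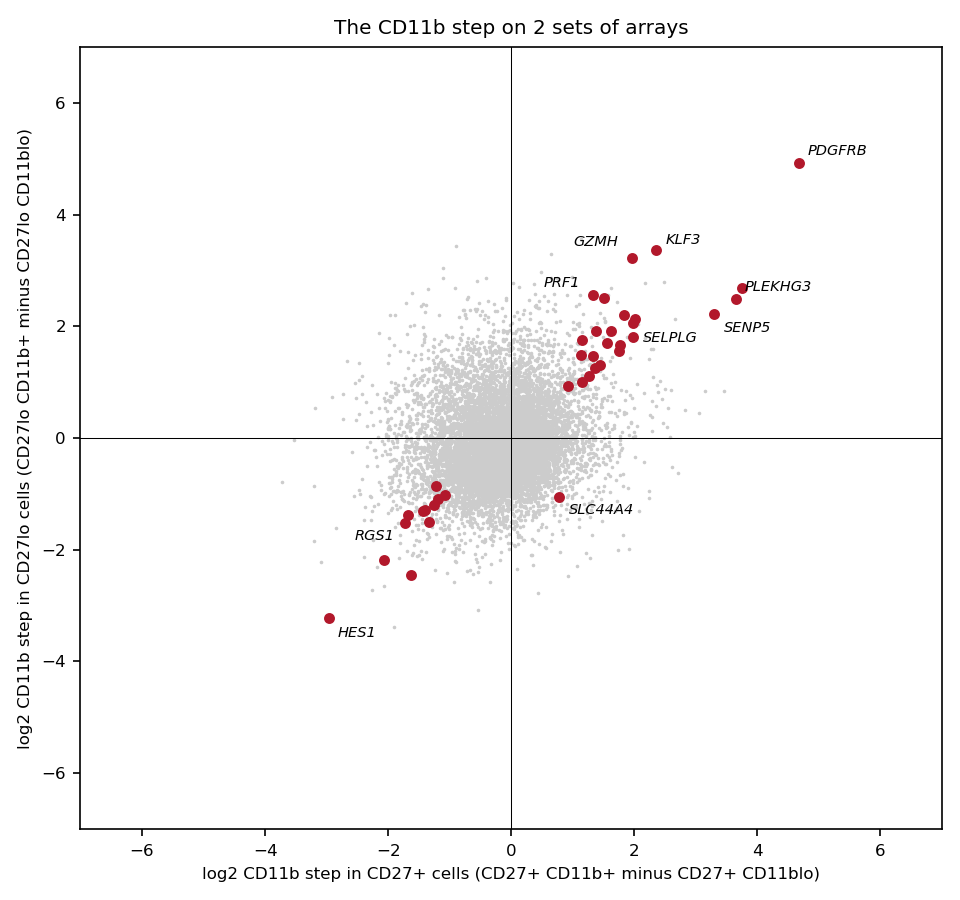
Log2 CD11b step in CD27+ cells (horizontal axis, double positives minus CD27 single positives) against the step in CD27lo cells (vertical axis, CD11b single positives minus double-low cells), 1 point per gene, with the 38 genes of unadjusted p under 0.05 in both in red. Of the red points 37 lie in the quadrants of equal sign, and SLC44A4 is the exception.

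A direct test of the difference between the steps called 0 genes in limma, with 175 (1.44%) at an unadjusted p under 0.05, 47 (0.385%) with the higher step in CD27+ cells and 128 (1.05%) in CD27lo cells. PLEKHG3 differed between the steps by 1.17 ± 0.82, GZMH by -1.27 ± 1.15, PRF1 by -1.23 ± 0.62 and SELPLG by -0.08 ± 0.75. Among the genes of lowest p, on the side of a larger step in CD27+ cells, were SLC44A4 (1.83 ± 0.52) and CLCC1, a chloride channel (2.85 ± 0.82). On the other side stood ABHD1 (-3.22 ± 0.92), POLR2D (-2.67 ± 0.84) and NUS1, a subunit of the dolichol-synthesising enzyme (-4.21 ± 1.37). ABHD1 was at -0.70 ± 0.65 (-0.17 without double-positive replicate 4) in CD27+ and 2.52 ± 0.65 in CD27lo cells. Each had a limma adjusted p of 0.9997. Of the list medians, tissue residency was at -0.65 and -0.54 in the CD27+ and CD27lo step, immediate early genes at -0.41 and -0.08, heat shock genes at -0.69 and 0.13, and cytotoxic granule genes at 0.04 and 0.85, against -0.09 and -0.20 for all genes.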

How the data were processed

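One-colour Agilent arrays of a custom design were analysed from the deposited scanner files. Per the labels' protocols, 50 ng of RNA went into a linear isothermal amplification and 400 ng of the product into Cy3 labelling. Signals were extracted from the images by Agilent Feature Extraction 10.7.1.1, per the submitters' processing notes, which also name Partek without settings. The processed signal is, per the file headers, an intensity after background subtraction and spatial detrending. The authors also deposited a matrix of log2 values, with the same distribution on each array, which served here as an alternative.

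Of 58659 probes (58839 spots, none saturated), outlier spots were removed and spots of 1 probe averaged. Transcript accessions matched 20417 probes (34.8%) to 12530 genes of the species' RefSeq gene table, used for names alone. A probe was tested when 4 or more of the 18 arrays of NK cells held it well above background, and the brightest probe stood for its gene. The log2 signal, less the array's 75th percentile, entered limma 3.58.1 (R 4.3.3) with a mean per subset over all 18 NK arrays, eBayes with trend and robust, and Benjamini-Hochberg adjustment at 0.05. The code was tested on simulated data. Bounds compare the brighter group with the background level, per array the higher of the lowest signal well above background and the probe's own.

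The comparison, the 30 gene lists and the genes named were chosen with earlier results of these data known. The naming rule took the sort and gating markers with PLEKHG3, GZMH and FGFBP2, the 12 genes of lowest p in each direction, up to 4 members of lowest p per list, the 8 of largest difference in each direction among genes detected on all 9 arrays whose groups did not overlap, and 3 per direction for the difference between steps. Not all of these genes and lists are reported here. RAP2B, RPTOR, GNLY, GZMA, GZMB, GZMK, ITGB2, CD69 and the genes said to be picked from both steps were chosen after their values were seen, as were PDGFRA, CDH5, VWF and COL1A1. The planned normexp correction used the spot medians. Alternatives covered normalization, background, probe filter and choice, the arrays fitted, weights, slide and replicate blocks, and leaving out each array.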

Additional observations from a re-analysis of the deposited data

Results flagged for a closer look

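In 10 of 196 sets of 4 or 5 arrays checked, 1 array stood further from the rest of its group than Dixon's 95% limit allows. Chance alone flags about 1 in 20 such sets. Of the 10, 5 were on double-positive replicate 4, the dimmest of the 9 arrays. Its share of probes well above background was 67.9%, and the other double-positive arrays lay at 85.7% to 91.5%. On it BUD13 was at 4.59, RAB8B at -2.77, EZR at -5.28 and BBC3 at -1.46 (log2 level). Double-positive replicate 3 had BTG1 at 0.67, below the other 4 double-positive arrays at 2.33 to 2.98.

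In CD27 single positives, replicate 1 had CD74 at 2.21, above the 1.19 to 1.37 of the other 3, and MTRES1, a mitochondrial gene, at -1.24 where the others were at -5.02 to -4.73. Replicate 3 had ANGEL1 at 0.46 and the others were at -0.03 to 0.02. Replicate 4 had PRF1 at 0.87, below the 2.35 to 2.52 of the others.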

How the results depend on the processing

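The count of genes at an adjusted p of 0.05 between double positives and CD27 single positives was 0 and became 1 under normexp background correction, with probes well above background on all 9 arrays, with every probe tested, and with all 20 arrays fitted. It was 0 to 1 as single arrays were left out, and the gene was PLEKHG3 wherever genes were tested. In the CD27lo step it became 1 with array weights. At an unadjusted p under 0.05 the count was 295 of 12192 genes. It ran from 173 of 8196 genes with a probe well above background on all 9 arrays to 446 of 12192 with array weights. With the 9 arrays fitted alone it was 197 of 11634. Without double-positive replicates 2 and 3 it was 520 of 12181 and 515 of 12178. Where fewer genes were tested, the counts are not directly comparable. PLEKHG3 kept a difference of 3.36 to 3.98 over settings and left-out arrays, with a limma adjusted p from 0.0202 to 0.968, the highest with the 9 arrays fitted alone, and 0.591 with slide as a block.

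Replicate numbers 1 to 3 share origin and sex between the groups, and their arrays deviated together (0.41, 0.35 and 0.36, the highest of 20 pairs). Number 4 has different labels in the groups and correlated at 0.088, and double-positive replicate 5 with CD27 single-positive replicate 4, alike in label, at 0.068. By label, pairing was thus seen for replicates 1 to 3 and not for the remaining pair of like label. Number 4, with unlike labels, could not show pairing by animal. Same-numbered arrays 1 to 3 also shared a slide, and pairs of different number on a shared slide correlated at 0.008, 0.036 and 0.069. The main fit used no block, so its errors and p-values take no account of pairing. With the replicate block limma called 0 genes, and 389 of 12192 were below 0.05 before adjustment. A block by animal, guessed from the labelled origin, sex and age, gave 0 and 311 of 12192. PTPRC was at -0.10 under either block, and GZMA at 0.43 under the second.

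Over the processing settings and left-out arrays, 3 of the 96 genes checked turned direction (GZMA, PTPRC and CD74), each with a reported difference within its error. GZMA without double-positive replicate 4, at 1.12 ± 0.89, lay beyond it. GZMA was at 0.027 after quantile normalization, 0.13 with normexp, 0.020 in the deposited values, 0.95 with array weights and 0.54 with slide as a block. PTPRC was at -0.17 with normexp, -0.10 as the mean of its probes and -0.28 with slide as a block, and CD74 at 0.46 with array weights. Left-out arrays moved GZMA between -1.26 and 1.12, PTPRC between -0.17 and 0.29 and CD74 between -0.18 and 0.29. With both dim arrays left out (added after seeing the data, with double-low replicate 4) the 3 were at 1.12, -0.088 and 0.14. Within a single slide, with 1 or 2 arrays a group and no test, more genes had the other sign: 8 in the first (CD74, CTSC, GZMA, GZMK, KLRG1, NUS1, STX11 and ZEB1) and 7 in the second (CD58, GZMA, ID3, ITGB2, KIT, KLF3 and PTPRC). The difference in array signal, -64.7 units, became 180.6 without double-positive replicate 4 (exact permutation p = 0.371). Of 870 list medians 851 moved by less than the spread and 19 by more.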
